A study of Homo sapiens with 8 samples.

Results

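The genes described here are the extracellular proteases of the MMP, ADAM, ADAMTS, KLK and PRSS families, the TIMP and serpin inhibitors, and a small set of plasminogen activation and matriptase genes. They were chosen by a rule on symbols, set with earlier results of these data known: every deposited gene named MMP, ADAM, ADAMTS, TIMP, KLK or PRSS followed by a number and at most 1 letter, every SERPIN of clades A to I, and PLAU, PLAUR, PLAT, ST14, SPINT1, SPINT2 and HPN, with 1 gene left out beforehand. This gave 113 genes of the 30434 in the table. The cells were SKBR3, an established human breast cancer line with ERBB2 (HER2) amplification, and RNA was sequenced from 4 control libraries of wild-type cells and 4 libraries of a stable FOXA1 knockdown derivative. FOXA1 is a forkhead transcription factor that opens chromatin in luminal breast cells. The knockdown line was made with lentiviruses carrying 3 individual short hairpin RNAs against FOXA1, and no drug or time course is named in the labels. The labels do not say whether the controls carried a control vector, how many clones the knockdown line holds or whether the replicates were separate cultures, so p-values here measure only the spread between these libraries, which may be technical.

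Proteolysis around a cell is set by the balance of enzymes, activators and inhibitors. MMPs, ADAMs and ADAMTSs are zinc enzymes that cut matrix proteins, shed membrane proteins or trim proteoglycans, and TIMPs block many of them. Serine proteases form cascades, such as the conversion of plasminogen to plasmin by PLAT or PLAU and the matriptase (ST14) and prostasin (PRSS8) pair of epithelial cells, and they are held in check by serpins and by the Kunitz inhibitors SPINT1 and SPINT2. Most of these proteins are made as inactive precursors, so a transcript level is not an activity.

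Library totals ran from 19087878 to 23786684 counts, at which 3 counts, the level treated as the floor of detection, correspond to 0.123 to 0.153 CPM (counts per 1000000, scaled by TMM factors). FOXA1 itself stood at 191, 192, 193 and 189 CPM in control replicates 1 to 4 and at 3.78, 3.56, 4.23 and 4.26 CPM in knockdown replicates 1 to 4. It was thus low in every knockdown library and high in every control library (log2 fold change -5.60, SE 0.063, edgeR adjusted p = 3.19e-30). Control replicate 3 stood apart: pairs of control libraries that included it differed by a chi-square of 4.50 to 5.72 per degree of freedom, against 2.10 to 2.28 for the other control pairs and 2.75 to 3.76 for knockdown pairs. All 6 luminal epithelial markers were above the floor, with a summed level of 16452 to 18320 CPM in control and 11224 to 12100 CPM in knockdown. They did not move together: ERBB2 went from a mean of 7308 to 1340 CPM and KRT19 from 2645 to 723 CPM, while EPCAM (179 to 226 CPM), KRT8 (4519 to 5619 CPM), KRT18 (2312 to 3457 CPM) and ERBB3 (258 to 351 CPM) were higher in knockdown. Of 8 fibroblast markers in the table, 4 were above the floor, and their sum was 6.04 to 7.69 CPM in control and 11.3 to 12.9 CPM in knockdown. These markers did not move together. COL3A1 had 0 to 1 counts in control and 90 to 104 in knockdown, and PDGFRB went from a mean of 0.410 to 2.83 CPM. COL1A1 went from 5.38 to 4.33 CPM, THY1 stood at 0.609 and 0.586 CPM, and DCN had at most 1 count in every library. The sum of the leukocyte markers was 5.36 to 6.81 CPM in control and 0.879 to 1.83 CPM in knockdown, with CD68 at a mean of 4.94 and 0.589 CPM and PTPRC at 3 counts or fewer throughout. CD14 moved the other way, from a mean of 0.181 to 0.533 CPM. Endothelial markers summed to 20.7 to 22.1 CPM in control and 19.8 to 22.4 CPM in knockdown. Most of this was CDH5, at a mean of 16.1 and 20.1 CPM, while VWF went from 5.22 to 0.845 CPM. Hepatocyte markers, included because liver makes many plasma serpins, summed to at most 0.550 CPM. What part these marker levels have in the results below was not tested.

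Of the 113 genes, 55 had enough counts to be tested and 58 did not, and 22 had 3 or fewer counts in every library. Among the 55 tested, 27 were higher and 18 lower in knockdown at an adjusted p under 0.05 (edgeR quasi-likelihood test, Benjamini-Hochberg over 16430 genes), and 10 did not pass. That is 81.8% of the tested members, against 77.1% of all genes tested, so the share called was close to the background. By direction, 39.4% of all genes were called higher and 37.7% lower, and these shares are the background for the counts within each family below. Changes of at least 2-fold were called upward for 22 members and downward for 11, where 14.9% and 13.4% of all genes did the same. The median size of the fitted log2 change was 1.11 among the tested members and 0.51 among all genes. Restricted to a mean of at least 50 counts, 27 of 32 members were called (84.4%), against 82.6% of all genes, and 17 were 2-fold changed (53.1%), against 23.5%. The groups did not overlap in CPM for 44 of the 55 members (72.0% of all genes). For each of these an exact two-sided permutation test over the 70 divisions of the libraries gave p = 0.0286, the smallest that design allows. Groups without overlap always give this p, so it adds nothing to the lack of overlap. As a share of all counts the 113 genes took 0.293% ± 0.00602 in control and 0.293% ± 0.00357 in knockdown (SD, n = 4). In bulk RNA, fewer cells with a transcript and less transcript per cell cannot be told apart, and this holds for every value below. In the following, 4 values given together are CPM in replicates 1 to 4, a mean is followed by its SD over 4 libraries, and log2 fold changes are knockdown minus control.

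**Figure D1:**
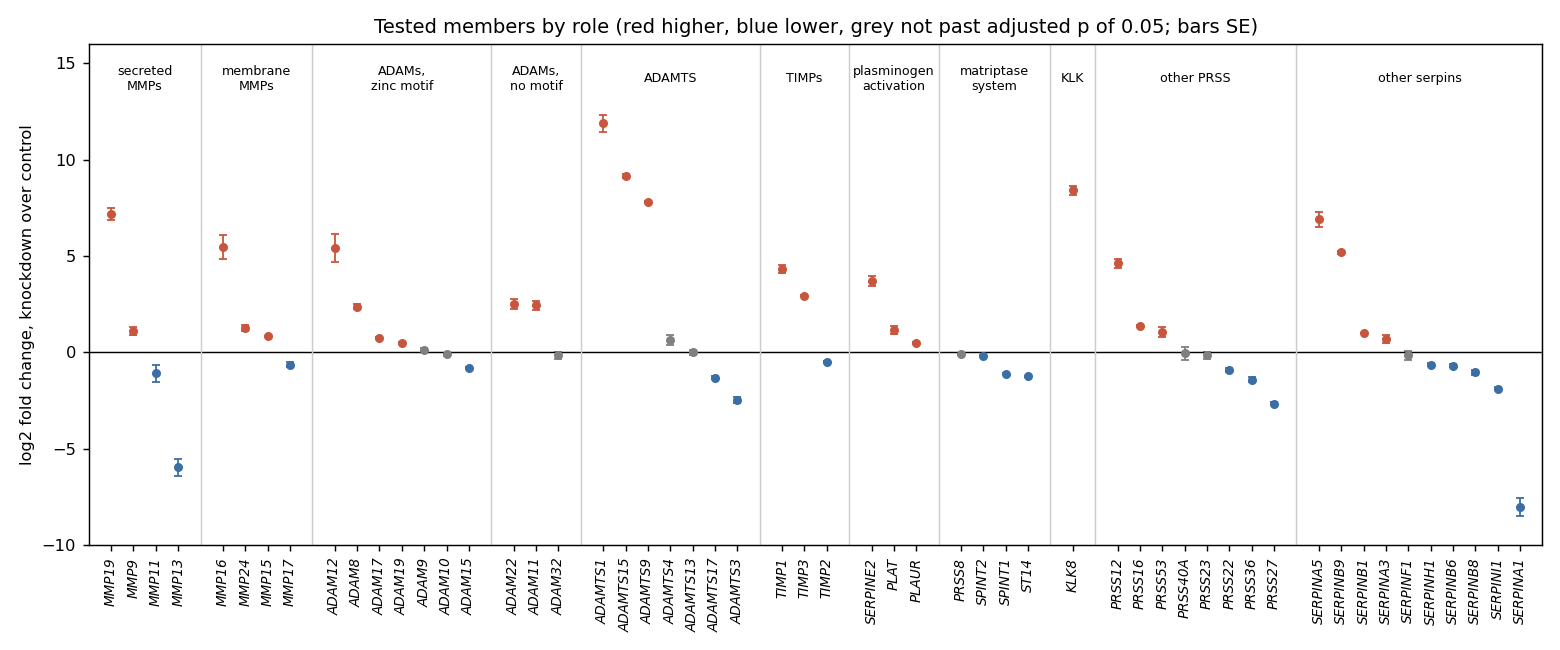
Fitted log2 fold change, knockdown over control, of 54 tested members (1 point each, bars are SE), arranged by role and coloured red where higher, blue where lower and grey where the adjusted p of 0.05 was not passed. Points lie on both sides of 0 in most roles, with ADAMTS1 at the top (11.88) and SERPINA1 at the bottom (-8.04); values of genes at the floor in 1 group depend on the prior count.

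Promoter sequence was available from RefSeq for 70 of the 113 members (93 windows, GRCh38.p14). The upstream stretches of 2 genes that rose and 2 that fell are shown 5′ to 3′ on the gene's own strand, ending at or before the annotated start, because these members changed without overlap and the printed stretches hold no annotated exon. Capitals mark GC boxes (GGGCGG on either strand) and TATA boxes (TATAAA on either strand).
TIMP3, rose, chr22:32801455-32801700, plus strand: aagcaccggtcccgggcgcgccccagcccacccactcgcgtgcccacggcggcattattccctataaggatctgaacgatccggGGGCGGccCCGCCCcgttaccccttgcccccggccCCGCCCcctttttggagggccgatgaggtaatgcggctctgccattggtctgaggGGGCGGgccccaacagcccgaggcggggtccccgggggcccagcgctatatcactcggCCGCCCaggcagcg
SERPINB9, rose, chr6:2903310-2903559, minus strand: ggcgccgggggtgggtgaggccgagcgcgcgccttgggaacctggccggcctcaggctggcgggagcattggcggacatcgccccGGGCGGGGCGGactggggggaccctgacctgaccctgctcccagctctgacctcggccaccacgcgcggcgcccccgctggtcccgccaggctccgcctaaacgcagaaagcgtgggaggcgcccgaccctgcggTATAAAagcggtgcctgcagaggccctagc
SPINT1, fell, chr15:40843798-40844017, plus strand: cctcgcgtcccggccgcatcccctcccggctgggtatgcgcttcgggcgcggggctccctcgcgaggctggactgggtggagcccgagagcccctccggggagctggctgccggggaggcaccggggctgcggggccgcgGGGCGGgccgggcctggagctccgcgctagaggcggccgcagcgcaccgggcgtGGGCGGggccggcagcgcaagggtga
ADAMTS17, fell, chr15:100342006-100342225, minus strand: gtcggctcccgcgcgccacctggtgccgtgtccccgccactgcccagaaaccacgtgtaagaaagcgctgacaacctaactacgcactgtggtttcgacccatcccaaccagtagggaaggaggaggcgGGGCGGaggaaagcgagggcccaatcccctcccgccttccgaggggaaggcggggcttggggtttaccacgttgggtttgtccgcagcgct
There were 5 GC boxes in the TIMP3 stretch, 2 in SERPINB9, which overlap each other, 2 in SPINT1 and 1 in ADAMTS17, and a TATA box in SERPINB9 alone. None of the 4 stretches holds a forkhead core (TGTTTAC or its variant TGTTTGC, and TATTTAC or its variant TATTTGC, on either strand). Over windows of 250 bases upstream of the start, a forkhead core occurred in 6 of 93 member windows (6.45%), those of ADAMTS13, PRSS37, SERPINA1, SERPINA10 and SERPIND1, against 10.6% of 34788 windows of all genes. GC boxes occurred in 59.1% of member windows and 42.6% of all windows, TATA boxes in 7.53% and 10.8%, and AP-1 sites (TGACTCA or TGAGTCA) in 4.30% and 4.21%. A match is a run of letters and not a shown binding site, and distal enhancers lie outside these windows.

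Among the 18 MMPs, 8 were tested, 5 rose and 3 fell. The levels were set by MMP15, a membrane-anchored MMP, and in knockdown also by MMP19, a secreted MMP of broad matrix specificity. MMP15 stood at 72.6, 68.4, 75.6 and 76.1 CPM in control and at 130, 136, 121 and 130 CPM in knockdown. All knockdown libraries were above all control libraries (log2 fold change 0.82, SE 0.0485, edgeR adjusted p = 3.73e-15). MMP19 stood at 0.321, 0.182, 0.570 and 0.345 CPM in control and at 54.9, 49.8, 50.1 and 52.0 CPM in knockdown. The change was from near the floor to a mean of 51.7 ± 2.34 CPM, a ratio of 146 with a 95% counting interval of 103 to 217 (log2 fold change 7.18, SE 0.316, edgeR adjusted p = 7.04e-26). MMP19 (chr12:55835433-55842966, GRCh38) shares 814 exonic bases with TMEM198B on the opposite strand. TMEM198B went from 6.40 ± 0.423 to 27.0 ± 1.84 CPM, and without known use of strand the reads of the pair cannot be told apart.

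The remaining MMPs were low. MMP24, a membrane MMP, went from 1.64 ± 0.274 to 3.96 ± 0.519 CPM (log2 fold change 1.27, SE 0.144, edgeR adjusted p = 4.77e-08). It shares 799 exonic bases with MMP24OS, which is far more abundant and fell from 89.3 ± 4.97 to 52.7 ± 2.20 CPM, the opposite direction. The gelatinase MMP9 rose from 0.519 ± 0.127 to 1.12 ± 0.0371 CPM (edgeR adjusted p = 0.00031), and the stromelysin MMP11 fell from 2.25 ± 0.317 to 1.07 ± 0.482 CPM (edgeR adjusted p = 0.00109). MMP9 shares 430 exonic bases with SLC12A5-AS1 on the opposite strand, which rose from 0.732 ± 0.196 to 1.86 ± 0.237 CPM. MMP11 shares 218 exonic bases with CHCHD10 on the opposite strand, at 57.9 ± 6.58 and 63.4 ± 1.19 CPM. Without known use of strand the reads of these pairs cannot be told apart. Collagenase 3, MMP13, had 17, 25, 24 and 26 counts in control and 0, 0, 0 and 1 in knockdown. That is a ratio of 90.2 in favour of control, with a counting interval of 16.3 to 3717 (edgeR adjusted p = 4.09e-10), and its only knockdown count is in replicate 4. MMP16, another membrane MMP, had 0, 0, 2 and 0 counts in control and 22, 38, 24 and 28 in knockdown, a ratio of 52.7 with a counting interval of 15 to 463. The membrane MMPs did not all rise: of 4 tested, 3 were higher and 1, MMP17, was lower. Its log2 fold change ran from -0.78 to -0.54 over 17 alternative fits, and it passed in all 17. Several MMPs often discussed in breast tumours gave little or no signal: MMP14 had at most 2 counts in any library, MMP1 and MMP3 had at most 2, and MMP2 had 2 to 9. MMP1, MMP2, MMP3, MMP14, MMP9, MMP11, MMP13, MMP16 and MMP17 lie outside the rule for named genes and were chosen after their values were seen.

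**Figure D2:**
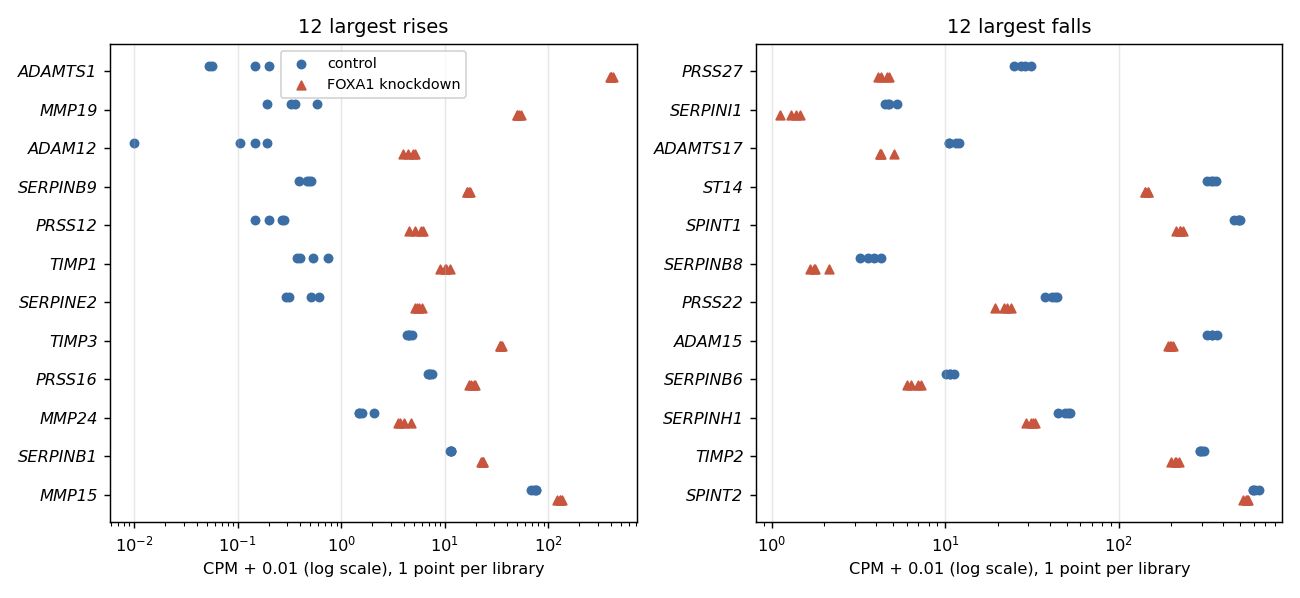
CPM plus 0.01 on a log axis for the 12 largest rises (left) and 12 largest falls (right) among members with a mean of at least 50 counts and separate groups, with 1 circle per control library and 1 triangle per knockdown library. Rises reach from MMP15 (73.2 to 129 CPM) to ADAMTS1 (0.104 to 405 CPM), while falls reach from SPINT2 (610 to 539 CPM) to PRSS27 (28 to 4.42 CPM).

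Among the ADAMs, the abundant genes changed by less than 2-fold and several low ones rose by more. Of 16 ADAMs, 10 were tested, 6 rose and 1 fell. ADAM15, a membrane metalloprotease with an RGD-containing disintegrin domain, was the most abundant in control at 343, 323, 367 and 345 CPM, against 199, 198, 193 and 205 CPM in knockdown. Every knockdown library was below every control library (344 ± 17.8 to 199 ± 5.15 CPM, log2 fold change -0.79, SE 0.0416, edgeR adjusted p = 4.35e-16). ADAM17, the main sheddase of TNF and of several EGFR ligands, stood at 41.4, 40.8, 37.2 and 42.9 CPM in control and at 66.0, 71.5, 69.4 and 66.8 CPM in knockdown. It rose without overlap of the groups (log2 fold change 0.75, SE 0.0511, edgeR adjusted p = 2.55e-13), and IAH1, with which it shares 1323 exonic bases on the opposite strand, did not pass (27.6 ± 0.734 and 26.4 ± 1.70 CPM). ADAM17 is outside the rule for named genes and was chosen after its values were seen.

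ADAM10, a sheddase of ERBB2 and Notch, gave 135, 130, 113 and 138 CPM in control and 120, 127, 119 and 115 CPM in knockdown. The groups overlapped through control replicate 3, which was the lowest of all 8 (log2 fold change -0.11, SE 0.0713, edgeR adjusted p = 0.0883). Without that library the value was -0.17 with an adjusted p of 0.000165. Adjusted p ran from 0.000165 to 0.760 over 18 alternatives, and 3 passed: the one without control replicate 3, the one with no filter on low counts (-0.10, adjusted p = 0.0216) and, in the opposite direction, the one measured against chromosomal neighbours (0.16, adjusted p = 0.0143). ADAM9 gave 228, 220, 183 and 228 CPM in control and 251, 239, 241 and 220 CPM in knockdown, again with control replicate 3 lowest and the groups overlapping (log2 fold change 0.14, SE 0.0859, edgeR adjusted p = 0.114, past in 5 of 18 alternatives). ADAM32 did not pass either (3.72 ± 0.850 and 3.37 ± 0.231 CPM, edgeR adjusted p = 0.354). At the low end, ADAM12, which cleaves IGF-binding proteins, had 4, 3, 2 and 0 counts in control and 117, 126, 77 and 95 in knockdown. Control libraries were at or near the floor and knockdown libraries well above it, a ratio of 44.5 with a counting interval of 23.8 to 100.4 (log2 fold change 5.43, SE 0.740, edgeR adjusted p = 6.18e-15). ADAM8, ADAM11 and ADAM22 were also below 1 CPM in control and rose by 2.38, 2.44 and 2.51 on the log2 scale. ADAM11 and ADAM22 lack the catalytic zinc motif, and these 3 genes were chosen after their values were seen.

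The ADAMTS genes, secreted proteases that cut proteoglycans and procollagens, included the largest fitted rise of all tested members. ADAMTS1, an aggrecan and versican protease, had 1, 3, 4 and 1 counts in control and 9528, 10201, 7811 and 8626 counts in knockdown. In CPM this was 0.0458, 0.136, 0.190 and 0.0431 against 405, 418, 398 and 399. The knockdown libraries lay within a narrow band and the control libraries around the floor, so the ratio of 3903 carries a counting interval of 2092 to 8685 (fitted log2 fold change 11.88, SE 0.433, edgeR adjusted p = 4.16e-32). ADAMTS1 lies at chr21:26835747-26845409, and its neighbour ADAMTS5 had 0 counts in control and 7, 6, 4 and 12 in knockdown, below the filter. ADAMTS15 had 0 counts in all controls and 81, 63, 67 and 76 in knockdown, at least 23.8-fold higher when 3 counts are assumed in each control library (edgeR adjusted p = 6.60e-14). ADAMTS9 likewise had 0 counts in all controls and 28, 31, 24 and 29 in knockdown, at least 9.21-fold higher (edgeR adjusted p = 8.50e-11).

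ADAMTS genes on the falling side were ADAMTS17 and the procollagen N-proteinase ADAMTS3. ADAMTS17 stood at 10.4, 10.5, 11.5 and 11.9 CPM in control and at 4.21, 5.08, 4.18 and 4.26 CPM in knockdown, without overlap (log2 fold change -1.32, SE 0.0825, edgeR adjusted p = 2.27e-12). ADAMTS3 gave 3.25, 3.00, 3.04 and 3.32 CPM against 0.723, 0.492, 0.458 and 0.555 CPM (log2 fold change -2.48, SE 0.142, edgeR adjusted p = 1.12e-11). ADAMTS13, the von Willebrand factor protease, averaged 1.16 ± 0.157 CPM in control against 1.15 ± 0.135 CPM in knockdown (edgeR adjusted p = 0.988), and ADAMTS4 did not pass (adjusted p = 0.0577). Divided by exon length, the ADAMTS genes summed to 2.23 ± 0.126 CPM per kb in control and 59.2 ± 1.31 in knockdown. ADAMTS17 made up 60.4% of that level in control and 0.907% in knockdown, and ADAMTS1 0.655% and 96.9%. Apart from ADAMTS1 and ADAMTS17, the ADAMTS genes given with values here are outside the rule for named genes and were chosen after their values were seen.

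The 4 TIMPs bind the active site of metalloproteases. TIMP1 and TIMP3 rose and TIMP2 fell, while TIMP4 stayed below the filter with 1, 0, 0 and 0 counts in control and 3, 2, 6 and 3 in knockdown. TIMP4 shares 170 exonic bases with SYN2 on the opposite strand, which rose from 0.0227 ± 0.0454 to 3.50 ± 0.400 CPM. Without known use of strand the reads of this pair cannot be told apart. TIMP3, which stays bound to matrix and also inhibits ADAM17 (promoter stretch shown above), stood at 4.81, 4.49, 4.27 and 4.52 CPM in control and at 34.3, 34.9, 34.0 and 35.7 CPM in knockdown. The groups were far apart and each was tight (log2 fold change 2.94, SE 0.0378, edgeR adjusted p = 8.91e-23). TIMP1, a secreted inhibitor, gave 0.366, 0.726, 0.522 and 0.388 CPM in control and 8.88, 10.3, 9.93 and 11.3 CPM in knockdown. All knockdown libraries were above all controls (log2 fold change 4.32, SE 0.229, edgeR adjusted p = 3.16e-18). TIMP2, which with MMP14 also takes part in activating MMP2, was the most abundant at 294, 300, 309 and 294 CPM in control and 211, 213, 201 and 221 CPM in knockdown. It was lower in every knockdown library (log2 fold change -0.50, SE 0.0328, edgeR adjusted p = 1.44e-12). The 50 nearest tested genes around TIMP2 (chr17:78852977-78925387) had a median log2 fold change of -0.80, and measured against that median TIMP2 was higher in knockdown by 0.30 (adjusted p = 1.51e-08).

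**Figure D3:**
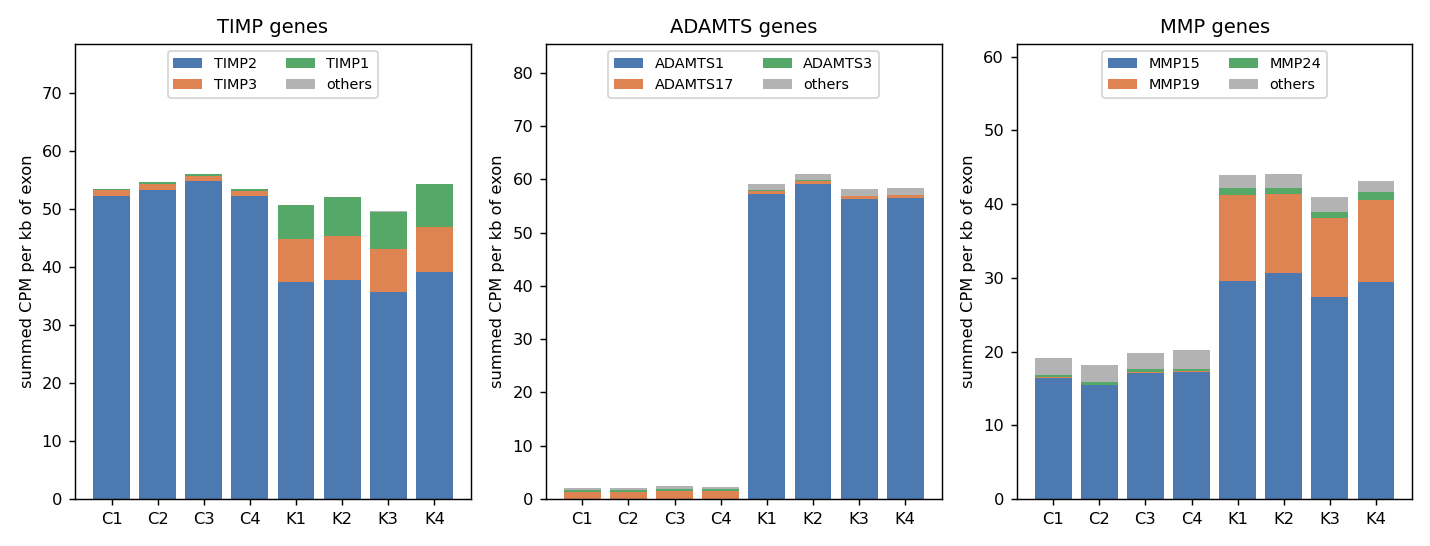
Stacked bars of the summed level per exon length (CPM per kb, linear axis from 0) of the TIMP, ADAMTS and MMP genes in each control (C1 to C4) and knockdown (K1 to K4) library, coloured by gene. The TIMP bars are of similar height in both groups but change in make-up, and the ADAMTS bars rise from 2.23 to 59.2 CPM per kb, nearly all of it ADAMTS1.

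Per exon length the TIMPs summed to 54.4 ± 1.24 CPM per kb in control and 51.8 ± 2.03 in knockdown. TIMP2 made up 97.6% ± 0.172 of this in control and 72.6% ± 0.887 in knockdown. TIMP3 went from 1.81% ± 0.123 to 14.6% ± 0.263 and TIMP1 from 0.595% ± 0.191 to 12.7% ± 0.910. Thus TIMP2 remained the largest TIMP transcript in both groups. For the MMPs the sum was 19.3 ± 0.886 CPM per kb in control and 43.0 ± 1.44 in knockdown, with MMP15 at 85.7% and 68.0% and MMP19 at 0.388% and 25.7%.

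Among the genes of plasminogen activation, PLAUR, PLAT and SERPINE2 rose. PLAUR, the membrane receptor of PLAU, stood at 7.88, 7.08, 7.08 and 6.77 CPM in control and at 9.18, 9.71, 10.3 and 11.2 CPM in knockdown. It rose without overlap (log2 fold change 0.48, SE 0.0758, edgeR adjusted p = 2.16e-05). The activator PLAT gave 1.05, 0.953, 1.47 and 1.81 CPM in control and 3.02, 2.66, 2.95 and 3.29 CPM in knockdown, also without overlap (log2 fold change 1.16, SE 0.219, edgeR adjusted p = 3.56e-06). SERPINE2 (protease nexin 1), an inhibitor of thrombin and of plasminogen activators, gave 0.595, 0.499, 0.285 and 0.302 CPM against 5.65, 5.12, 5.40 and 6.01 CPM. Every knockdown library was above every control library (log2 fold change 3.71, SE 0.255, edgeR adjusted p = 2.05e-15). The other activator, PLAU, was below the filter with 12, 6, 9 and 11 counts in control and 2, 4, 2 and 3 in knockdown, a ratio of 3.52 in favour of control with a counting interval of 1.75 to 7.58. Its groups did not overlap (exact two-sided permutation p = 0.0286, which follows from the lack of overlap), and without the filter PLAU was lower (log2 fold change -1.76, edgeR adjusted p = 0.00134). SERPINB2 (PAI-2) had 2, 2, 4 and 3 counts in control and 2, 0, 1 and 0 in knockdown, and SERPINF2, the plasmin inhibitor, had at most 2 counts.

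The matriptase system held the most abundant members in control. Of its 4 tested genes, 3 were called lower, where 37.7% of all genes were called lower. ST14 (matriptase), a membrane serine protease of epithelia, stood at 347, 322, 362 and 338 CPM in control and at 148, 142, 142 and 148 CPM in knockdown. The knockdown libraries kept 42.3% of the control level, and the groups were far apart (log2 fold change -1.24, SE 0.0392, edgeR adjusted p = 3.13e-20). Its cognate inhibitor SPINT1 (HAI-1) gave 494, 463, 499 and 484 CPM in control and 225, 226, 213 and 235 CPM in knockdown. It too was lower in every knockdown library, at 46.3% of control (log2 fold change -1.11, SE 0.0379, edgeR adjusted p = 1.55e-19). SPINT2 (HAI-2), a Kunitz inhibitor of matriptase, prostasin and hepsin, gave 608, 596, 639 and 596 CPM against 540, 519, 553 and 546 CPM. That fall was small but without overlap (log2 fold change -0.18, SE 0.031, edgeR adjusted p = 3.55e-05). PRSS8 (prostasin) gave 142, 124, 139 and 124 CPM in control and 128, 122, 119 and 130 CPM in knockdown, with the groups overlapping (log2 fold change -0.08, SE 0.059, edgeR adjusted p = 0.108). It passed without control replicate 2 (adjusted p = 0.0404) or control replicate 4 (adjusted p = 0.0274) and under none of the other 16 of 18 alternatives. HPN (hepsin) had 1, 0, 1 and 0 counts in control and 5, 6, 2 and 7 in knockdown, below the filter. The log2 ratio of ST14 to SPINT1 counts was -0.50 ± 0.0277 in control and -0.63 ± 0.0425 in knockdown, so protease and inhibitor fell by similar factors, ST14 slightly further, with the ratio lower in every knockdown library. The log2 ratio of SPINT1 to SPINT2 went from -0.33 ± 0.0343 to -1.26 ± 0.0814. The 50 tested genes nearest to ST14 had a median log2 fold change of -0.58, and against that median the log2 fold change of ST14 was -0.66 (adjusted p = 1.30e-14). For SPINT1 the median of the 50 nearest was -0.32, and against it the log2 fold change was -0.79. By that measure SPINT1 fell further than ST14.

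Ranked by CPM per kb of exon, the leading members in control included, in order, SPINT1 (137), SPINT2 (117), ST14 (78.7), TIMP2 (53.1), ADAM15 (52.3), PRSS8 (43.9) and ADAM9 (31.1). In knockdown they included SPINT2 (104), SPINT1 (63.4), ADAMTS1 (57.3), PRSS8 (41.5), TIMP2 (37.6), ADAM9 (34.4), ST14 (33.3), ADAM15 (30.2) and MMP15 (29.3). TIMP2 and ADAM15 in control (53.1 ± 1.23 and 52.3 ± 2.71) and ADAM15 and MMP15 in knockdown (30.2 ± 0.782 and 29.3 ± 1.34) differed by less than their spread. ST14 thus fell from behind the Kunitz inhibitors to the range of ADAM9 and ADAM15, and ADAMTS1 entered this group from a control level of 0.0147.

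The remaining serine proteases were mostly low. Of 10 kallikreins (KLKs), secreted proteases of epithelia encoded together on chromosome 19, KLK8 was the only one tested. It had 0 counts in every control and 51, 61, 22 and 38 in knockdown, at least 13.8-fold higher (edgeR adjusted p = 5.01e-10), and was chosen after its values were seen. No other KLK exceeded 12 counts in any library. Among the other 18 PRSS genes, 8 were tested, 3 rose and 3 fell. PRSS27, a protease of epithelia, gave 27.2, 24.8, 31.2 and 28.7 CPM in control and 4.08, 4.59, 4.74 and 4.26 CPM in knockdown. The groups were far apart (log2 fold change -2.66, SE 0.0846, edgeR adjusted p = 8.72e-20). PRSS22, which lies in the same cluster, gave 41.4, 37.4, 43.1 and 44.0 CPM against 24, 21.8, 22.8 and 19.4 CPM and fell as well (log2 fold change -0.91, SE 0.0834, edgeR adjusted p = 5.02e-12). On the rising side, PRSS12 (neurotrypsin) went from 0.215 ± 0.0628 to 5.43 ± 0.743 CPM (log2 fold change 4.62, SE 0.226, edgeR adjusted p = 3.77e-16). PRSS16, a thymus-specific serine protease, went from 7.18 ± 0.298 to 18.3 ± 1.13 CPM (log2 fold change 1.35, SE 0.0537, edgeR adjusted p = 9.61e-15).

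Serpins outside the plasminogen group were mixed: of 18, 10 were tested, 4 rose and 5 fell. SERPINB9, an intracellular inhibitor of granzyme B, stood at 0.504, 0.454, 0.380 and 0.474 CPM in control and at 16.2, 17.5, 16.4 and 17.2 CPM in knockdown. All knockdown libraries were far above all controls (log2 fold change 5.20, SE 0.0861, edgeR adjusted p = 2.94e-22). SERPINB1, an inhibitor of neutrophil elastase, gave 11.4, 11.5, 11.3 and 11.2 CPM against 23.2, 22.7, 23.4 and 22.5 CPM, a doubling without overlap (log2 fold change 1.01, SE 0.0158, edgeR adjusted p = 5.55e-14). SERPINB6, their neighbour, gave 10.6, 10.6, 10.0 and 11.2 CPM against 5.99, 6.35, 7.18 and 6.94 CPM and fell (log2 fold change -0.69, SE 0.0675, edgeR adjusted p = 7.85e-08). SERPINB8, on chromosome 18 away from these, fell from 3.74 ± 0.444 to 1.82 ± 0.210 CPM (log2 fold change -1.04, SE 0.116, edgeR adjusted p = 6.45e-07). SERPINH1 (HSP47), a collagen chaperone of the endoplasmic reticulum and not a protease inhibitor, fell from 49.0 ± 3.29 to 31.4 ± 1.54 CPM (log2 fold change -0.64, SE 0.0609, edgeR adjusted p = 5.86e-11). SERPINI1 (neuroserpin), an inhibitor of PLAT, gave 5.22, 4.49, 4.75 and 4.65 CPM against 1.36, 1.11, 1.27 and 1.43 CPM, without overlap (log2 fold change -1.88, SE 0.0924, edgeR adjusted p = 7.49e-12).

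Members within 500000 bases of each other moved in opposite directions in several clusters. On chromosome 14, SERPINA1 (alpha-1 antitrypsin) had 92, 109, 84 and 105 counts in control and 0, 0, 1 and 0 in knockdown, while SERPINA5 (protein C inhibitor) had 0, 0, 0 and 1 in control and 43, 50, 47 and 40 in knockdown. The ratios were 347 in favour of control for SERPINA1, with a counting interval of 70.4 to 15628 (edgeR adjusted p = 2.65e-16), and 188 in favour of knockdown for SERPINA5, with a counting interval of 31.5 to 7064 (edgeR adjusted p = 6.17e-13). SERPINA3, the remaining tested gene of that cluster, overlapped between groups at 0.496 ± 0.131 and 0.801 ± 0.155 CPM (edgeR adjusted p = 0.0282, past in 11 of 17 alternatives and lost without control replicate 1, 2 or 3 or knockdown replicate 2). The low group holds a single count for SERPINA1 (knockdown replicate 3) and for SERPINA5 (control replicate 4) and is at 0 without it, so both ratios have a wide interval. These 3 genes are outside the rule for named genes and were chosen after their values were seen. On chromosome 6, SERPINB1 (chr6:2832332-2842006) and SERPINB9 (chr6:2887266-2903280) rose and SERPINB6 (chr6:2948159-2972165) fell. On chromosome 11, ST14 (chr11:130159562-130210376) fell and ADAMTS15 (chr11:130448974-130476641) rose, with the barely detected ADAMTS8 between them.

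**Figure D4:**
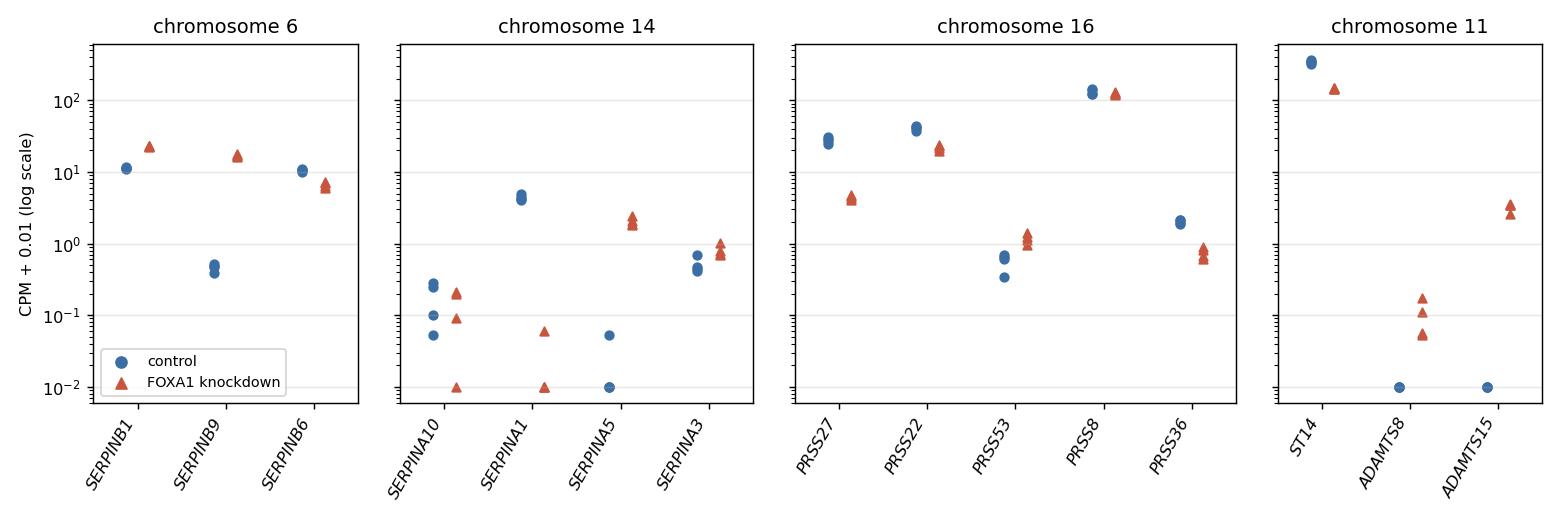
CPM plus 0.01 on a log axis, 1 mark per library, for members that lie near other members on chromosomes 6, 14, 16 and 11 (circles control, triangles knockdown); each neighbour is within 500000 bases of the next, except that the chromosome 16 panel joins a pair of clusters. In the serpin clusters on chromosomes 6 and 14, nearby genes move to opposite sides: SERPINB9 up and SERPINB6 down, SERPINA5 up and SERPINA1 down.

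Other genes of pericellular proteolysis were taken from a list, also drawn up with earlier results known, of proteases, activators, inhibitors and clearance receptors outside the symbol rule. Of the 95 in the table, 70 were tested, 32 rose, 32 fell and 6 did not pass, which is 91.4% called, against 77.1% of all genes. At least 2-fold changes were called upward for 19 and downward for 20, where 14.9% and 13.4% of all genes did the same. The endocytic receptors LRP1, LRP2, LRP8, SORL1 and IGF2R were split. LRP2 (megalin) rose from 0.194 ± 0.0471 to 216 ± 9.04 CPM (edgeR adjusted p = 6.27e-31) and LRP1 from 1.56 ± 0.235 to 34.1 ± 3.42 CPM (edgeR adjusted p = 2.85e-22). SORL1 fell from 136 ± 3.18 to 14.3 ± 0.761 CPM (edgeR adjusted p = 1.28e-26), LRP8 from 256 ± 6.91 to 141 ± 4.43 CPM (edgeR adjusted p = 2.35e-17) and IGF2R from 279.9 ± 4.21 to 213 ± 7.66 CPM (edgeR adjusted p = 1.05e-10). LRP8 and IGF2R are outside the rule for named genes. HTRA1, a secreted serine protease, had 0 counts in every control and 8.74 ± 0.540 CPM in knockdown, at least 64.1-fold higher (edgeR adjusted p = 3.93e-18). The membrane peptidase MME (neprilysin) rose from 0.089 ± 0.0792 to 15.5 ± 0.546 CPM, and its relative MMEL1 fell from 14 ± 1.19 to 0.124 ± 0.0437 CPM (edgeR adjusted p = 4.21e-21 and 2.04e-21). Proprotein convertase PCSK6 rose from 0.489 ± 0.0897 to 17.9 ± 1.15 CPM and the cysteine protease inhibitor CST3 from 4.83 ± 0.734 to 82.1 ± 2.82 CPM (edgeR adjusted p = 5.53e-22 and 1.84e-25). Carboxypeptidase E (CPE) fell from 156 ± 3.05 to 0.525 ± 0.177 CPM and the rhomboid protease RHBDL2 from 6.75 ± 0.659 to 0.102 ± 0.0462 CPM (edgeR adjusted p = 7.66e-30 and 4.09e-18). The type II membrane serine proteases TMPRSS4 and TMPRSS13 fell from 39.4 ± 1.43 to 0.874 ± 0.0779 CPM and from 75.0 ± 3.87 to 8.67 ± 1.07 CPM (edgeR adjusted p = 1.27e-25 and 4.84e-23).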

How the data were processed

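RNA from 8 SKBR3 libraries was sequenced as paired-end reads of 101 bases, per the labels' protocols. The authors deposited raw whole-number counts per gene. The submitters' processing notes name FastQC, Salmon 1.9, DESeq2 3.16 and hg38 without roles; the annotation and strand setting are not given in the sources used here. Groups came from the sample titles, and columns were matched by name. Genes were kept by filterByExpr (minimum 10 counts, total 15), leaving 16430, scaled by TMM (0.965 to 1.04) and tested with edgeR 4.0.16 in R 4.3.3 (glmQLFit robust, glmQLFTest, Benjamini-Hochberg over all genes tested, threshold 0.05). Fitted log2 values carry a prior count of 0.125. SE come from log2 CPM with 0.5 added to each count. Ratios and floors cover counting error only. Positions come from GENCODE 29 on GRCh38 (96.5% of identifiers matched). Members and lists were chosen with earlier results of these data known. Named members are the 12 largest rises and 12 largest falls averaging at least 50 counts without overlap of the groups, the 6 most abundant per group, those with at least 50 counts not past the threshold, and every plasminogen activation, TIMP and matriptase gene, plus 6 rises and 6 falls among the other proteolysis genes; 1 gene covered by this rule is counted but not reported here. Same-numbered replicates had deviations correlated at 0.0200, 0.0563, -0.0307 and -0.000640, and differently numbered ones at -0.0411 to 0.0507. These values show no pairing by number but cannot exclude one, and the libraries were treated as unpaired in the main fit. Alternatives were scaling by RLE, upper quartile or library size only, no filter or a mean of 50 counts, adjusted p under 0.01, no robust estimation, DESeq2 1.42.0, limma 3.58.1 voom, a replicate block, a neighbour offset and leaving out each library.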

Additional observations from a re-analysis of the deposited data

Results flagged for a closer look

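In 95 groups of 4 libraries examined for the named members, the plasminogen, TIMP and matriptase genes and the named proteolysis genes, 4 held 1 library set apart from the other 3 by more than Dixon's 95% critical value for 4 samples. Chance alone would pick out about 4.75 of 95. ADAMTS17 in knockdown replicate 2 was high at 5.08 CPM, against 4.18 to 4.26 CPM in the others. MME in knockdown replicate 4 was low at 14.7 CPM, against 15.7 to 15.9 CPM. The other 2 rest on single counts: SERPINF2 was at 0 CPM in knockdown replicate 2, against 0.0425 to 0.0509 CPM, and TIMP4 was at 0.0458 CPM (1 count) in control replicate 1, against 0 in the other controls.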

How the results depend on the processing

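The fold changes of 44 genes were compared over 19 alternatives, 8 of which leave out 1 library. For adjusted p under 0.01 only the threshold moved, so its fold changes are those of the main fit. Of 835 values, 818 kept direction and side of the threshold, 13 passed only under the alternative and 4 changed direction. The 4 were TIMP2 (0.30, adjusted p = 1.51e-08), ADAM10 (0.16, adjusted p = 0.0143) and ADAM9 (-0.058, adjusted p = 0.511) against the median of their 50 chromosomal neighbours, and PRSS8 with library size only (0.0027, adjusted p = 0.958), all by edgeR. The cause was not tested. Without a filter on low counts 41 members were higher and 24 lower, 36 and 16 at 2-fold, and 15028 of the 30434 genes were called in all. Of the 58 members otherwise not tested, 14 were then higher, 5 lower and 39 not past. The share called among all 14004 genes otherwise not tested was not computed, so these counts cannot be read against a background. Requiring 50 counts on average, 15 were higher and, at 2-fold, 11 were higher and 6 lower, since only 32 members were then tested. At that setting 10279 genes were called in all. Leaving out 1 library gave 26 to 30 members higher and 19 to 21 lower, 22 to 25 and 10 to 13 at 2-fold, and 32 to 33 and 31 to 32 among the other proteolysis genes. The filter then let in 56 to 60 members instead of 55, and 44 or 45 of the 45 calls were kept. Those fits called 12498 to 12865 genes in all. A block on the replicate number left 27 members higher and 18 lower, 45 of the same 45 genes, and called 12453 genes in all. Without control replicate 3, 44 of the 45 members kept their call, SERPINA3 lost it and ADAM10 gained one. Scaling by library size only moved the median log2 fold change of all genes from 0.02 to 0.10. Without the filter KLK1, KLK6 and KLK7 were higher and the other 6 low KLKs did not pass, nor did MMP14 (adjusted p = 0.0835 by edgeR, mean of 0.5 counts), for which a change was not detectable at this depth.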
